A study of Mus musculus with 12 samples.

Results

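Type 2 conventional dendritic cells were taken from single-cell transcriptomes of mouse SCC35 tumours with members chosen by a gate on raw molecule counts (unique molecular identifiers, UMIs). A cell belonged to the gate when it held at least 1 UMI of Cd209a and Flt3 together and at least 5 UMIs of the MHC class II genes H2-Aa, H2-Ab1 and H2-Eb1. It also had to hold 0 UMIs of Xcr1 and Clec9a (type 1 dendritic cells), of Ccr7 (migratory dendritic cells), of the C1q genes (macrophages) and of the Cd3 genes (T cells). Of 176381 deposited barcodes, 116375 passed the cell filter with a single hashtag, and 335 of these were members. The libraries of control lines 15 and 18 gave 49 and 32 members, those of Mif KO lines 19 and 24 gave 65 and 72, and the 2 libraries that mix lines gave 51 and 66. By group, 122 members came from control tumours, 199 from Mif KO tumours and 14 from WT tumours. By day, 129 came from day 6, 120 from day 10 and 86 from day 16.

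Conventional dendritic cells derive from bone marrow precursors under the cytokine Flt3 ligand, sample antigen in tissues and present it to T cells. The type 1 branch depends on the factors Irf8 and Batf3 and is known for cross-presentation to CD8 T cells. The type 2 branch expresses Irf4 together with C-type lectins such as Cd209a and Clec10a, presents antigen on MHC class II chiefly to CD4 T cells, and overlaps in its markers with monocyte-derived cells. After taking up antigen both branches can mature, gain the chemokine receptor Ccr7 and leave for the lymph node, and such cells are outside this gate.

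The series followed SCC35 tumours over time with and without Mif, a secreted cytokine that binds Cd74. The 2 control lines (15 and 18, labelled Mif KO control) and the 2 Mif KO lines (19 and 24) were each sampled at days 0, 6, 10 and 16, with 1 hashtag per sample. There are 4 libraries of 1 line each, so library and line cannot be told apart there. One mixed library holds lines 15, 18 and 19, and the other holds lines 18 and 24 with 3 tumours named WT in the deposited hashtag sheet, which the sample labels place in no group. All tumours were dissociated enzymatically on a gentleMACS device, hashed with antibodies and sorted as live cells by propidium iodide exclusion. The host strain, its age and the meaning of day 0 are not stated in the labels, and the Mif loss lies in the injected line, not in the host cells described here. With 2 lines a group, each comparison of groups is a comparison of 4 lines.

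The 7 day 0 samples with cells held no member among 5769 cells. This allows a share of up to 0.052% of all cells and, over their 88 cells with a Ptprc UMI, of up to 3.41%. Of those 88 cells, 62 came from 1 sample of line 24, which also held the 8 MHC class II macrophages of day 0. The targeted gene was checked in cells without a Ptprc UMI. Mif there ranged from 1623 to 2980.5 counts per 1000000 (CPM) in line 15 and from 1726 to 2676 CPM in line 18. It ranged from 39.5 to 460.03 CPM in line 19 and from 223 to 1189 CPM in line 24, so that every KO sample lay below every control sample. The upper values of both KO lines came from the mixed libraries, at 351 to 460.03 CPM in line 19 and 1120 to 1189 CPM in line 24. In the libraries of single lines they reached 118 and 518 CPM. The cause of this difference was not tested. The libraries held 92167615 to 175617815 UMIs in kept cells. Kept cells shared 7201 of their 108917 distinct barcodes between libraries, and 38 members shared theirs with a kept cell of another library. No barcode was a member in more than 1 library.

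The gate was narrow on the lectin side and wide on the class II side. Members held a median of 2 UMIs of Cd209a and Flt3 together (range 1 to 26) and a median of 57 class II UMIs (range 5 to 408). Exactly 1 UMI of Cd209a or Flt3 admitted 152 members, and 15 members held 5 to 9 class II UMIs. Just outside, 4054 cells met every other condition but had 0 UMIs of Cd209a and Flt3, and 37 missed only by holding 1 to 4 class II UMIs. A further 250 cells missed only through Ccr7, 89 only through C1q, 28 only through Xcr1 or Clec9a and 30 only through Cd3. Members held a median of 3062 UMIs and 1288 genes per cell.

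The label was then checked against genes that the gate had not used. All 14 such genes of the type 2 marker list were detected, with a summed level of 1049 CPM (897 to 1322 across libraries), against 868 CPM in type 1 dendritic cells (666 to 1506 across libraries), 679 CPM in Ccr7 dendritic cells and 779 CPM in MHC class II macrophages. The range of type 2 cells overlapped that of type 1 cells and, at its lower end, that of macrophages (641 to 910 CPM across libraries). The summed list therefore did not set them apart. It includes Batf3 and Cd24a, which are also found in type 1 dendritic cells. Levels in this and the next paragraphs are counts summed over all cells of a gate, in CPM. The gates differ by construction in the cells they admit, so levels are set side by side with no test. The macrophage gate took cells with at least 3 C1q UMIs, at least 5 class II UMIs and no UMI of Mrc1 or the Cd3 genes. Macrophages with Mrc1 are therefore outside it, and their levels are not given here. Some genes of other types were at 0 counts: Cd79a, Ms4a1 and Pax5 of B cells, Trac, Trbc1 and Trbc2 of T cells. Ncr1 of NK cells and S100a8 and Retnlg of neutrophils were also at 0. Other genes of these lists were detected. Outside the gate genes the lists summed to 32.2, 3.04, 4.86 and 24.9 CPM, in this order. The plasmacytoid dendritic cell list summed to 1043 CPM in members and 969 CPM in macrophages. The fibroblast list summed to 1321 and 1434 CPM. The keratinocyte list summed to 69.2 CPM, with 0 to 469 CPM across libraries. Monocyte genes were not absent. Of 10 monocyte markers 9 were detected, summing to 1816 CPM (1536 to 2163 across libraries) against 1388 CPM in the macrophage gate. T cells held 1604 CPM of the same list (1324 to 1817 across libraries), a range that overlapped that of members. Chil3 was at 0 and Ly6c2, a classical monocyte gene, at 185 CPM. In T cells Ly6c2 averaged 592 CPM per control tumour and 621 CPM per KO tumour. The summed monocyte list therefore did not set members apart from T cells. The gate holds no condition that separates type 2 conventional dendritic cells from monocyte-derived cells that carry Cd209a, and how many of these it admitted was not tested.

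Among surface lectins, Clec10a, a receptor for galactose-type sugars, stood at 179.7 CPM in members, 24.5 in type 1 dendritic cells, 33.7 in Ccr7 dendritic cells and 10.8 in MHC class II macrophages. Its close relative Mgl2 was shared with the macrophages, at 166 CPM in members and 114 in macrophages. The paralogues of Cd209a followed the gate gene: Cd209d stood at 55.3 CPM, Cd209c at 29.1 and Cd209e at 10.9, against at most 4.18 CPM of any of the 3 in Ccr7 dendritic cells. Reads of these paralogues may be exchanged with Cd209a itself, so their levels are uncertain. Cd7 and Klrd1, better known from lymphocytes, were both detected in members, Cd7 at 115 CPM against 1.18 in macrophages, and Klrd1 at 157 CPM against 3.46. T cells held both at 106 and 111 CPM. The gate had removed cells with Cd3 UMIs, and whether T-cell RNA contributed to either gene was not tested. Cfp, which encodes the complement factor properdin, stood at 399 CPM in members and 193 in macrophages.

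To compare shares of cells across gates of different depth, each cell was thinned to 1000 UMIs, which left 330 of the members. A Cd209a UMI was then present in 47.6% of members and in 0.0414% of T cells, which should lack it. Unthinned it was present in 81.5% of members and 0.0932% of T cells, at median depths of 3062 and 1915 UMIs. Cd209a helped to admit members, so its share in them was set by the gate, whereas the T-cell gate did not use it. Clec10a was present in 17.9% of thinned members against 1.87% of type 1 dendritic cells, 4.33% of Ccr7 dendritic cells and 1.57% of macrophages. Il1r2, the decoy receptor that binds interleukin 1 without signalling, was present in 35.2% of members, 16.8% of type 1 dendritic cells, 24.2% of Ccr7 dendritic cells and 13.2% of macrophages.

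The growth factor receptors of dendritic cells were present. Flt3 stood at 54 CPM in members, 58.5 in type 1 and 51.1 in Ccr7 dendritic cells, and 0.394 in macrophages. Kit stood at 30.4 CPM against 1.62 in macrophages. Csf2rb and Csf2ra, the chains of the receptor for the cytokine GM-CSF, stood at 231 and 136 CPM against 123 and 119 in macrophages. Csf1r, the macrophage growth factor receptor, stood at 63.2 CPM in members and 181 in macrophages. Flt3 helped to admit members, so its level there was set by the gate.

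The lineage factors were sparse but ordered. Irf4, the factor of the type 2 branch, stood at 21.3 CPM in members, 16.1 in Ccr7 dendritic cells, 1.89 in type 1 dendritic cells and 1.79 in macrophages, and only 35 UMIs underlie the value in members. Irf8 and Batf3, the factors of the type 1 branch, stood at 106 and 21.3 CPM in members against 653 and 79.3 CPM in type 1 dendritic cells. Zbtb46, a factor of conventional dendritic cells, stood at 12.8 CPM against 0.962 in macrophages. Bcl11a, needed early in the dendritic lineage, stood at 23.7 CPM against 0.744 in macrophages.

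**Figure D1:**
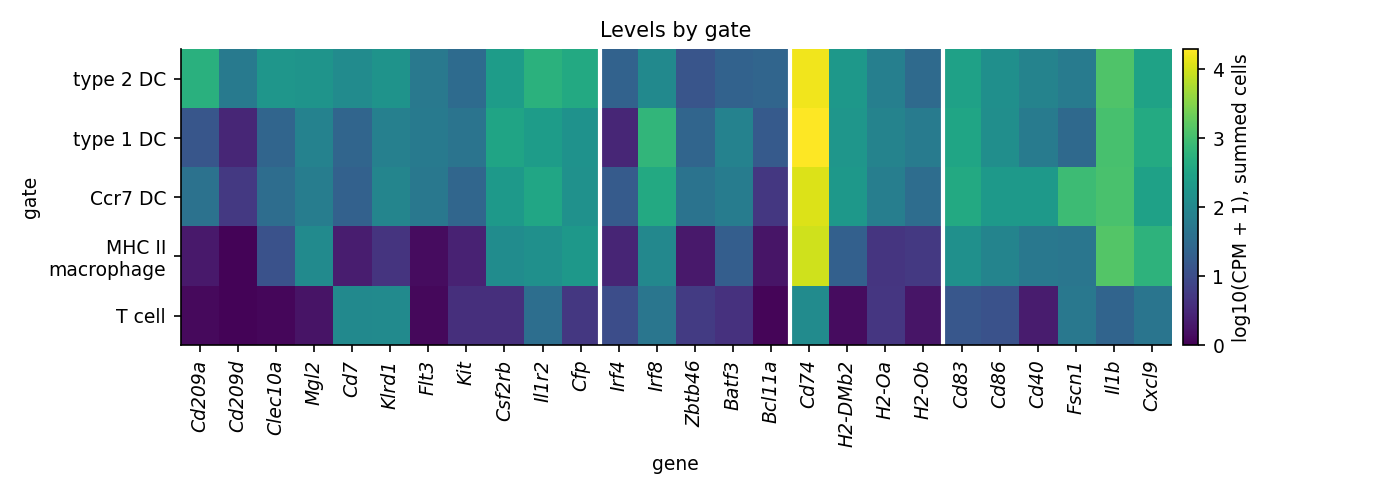
Level of 26 genes (columns, grouped as lectins and receptors, transcription factors, class II genes and activation genes) in 5 gates (rows), as log10(CPM + 1) of counts summed over the cells of a gate. Cd209d and Clec10a are brightest in type 2 dendritic cells, Irf8 in type 1 dendritic cells and Fscn1 in Ccr7 dendritic cells; Cd209a and Flt3 were used by the gate.

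In the class II pathway the accessory chains separated dendritic cells from macrophages more sharply than the invariant chain. Cd74, the invariant chain and Mif receptor, stood at 15921 CPM in members and 9531 CPM in macrophages. H2-DMb2, part of the peptide editor, stood at 196 CPM in members and 19.8 in macrophages. H2-Oa and H2-Ob, which restrain that editor, stood at 69.8 and 29.8 CPM in members against 3.67 and 4.11 in macrophages. The same genes were at 66.5 and 33.5 CPM in Ccr7 dendritic cells, within the range across member libraries (29.5 to 125 CPM for H2-Oa).

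Members held less of the maturation programme than Ccr7 dendritic cells. The costimulatory receptor Cd40 stood at 82 CPM in members and 206 in Ccr7 dendritic cells, and Cd86 at 136 and 198 CPM. Fscn1, an actin bundler of mature dendritic cells, stood at 60.7 and 865 CPM. Ccl22, a chemokine for regulatory T cells, stood at 22.5 and 388 CPM. Il12b, a chain of interleukin 12 and interleukin 23, had 0 counts in members, which allows up to 1.82 CPM, and stood at 221 CPM in Ccr7 dendritic cells.

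Inflammatory transcripts were not those of the macrophage gate throughout. Il1b, the cytokine interleukin 1 beta, stood at 1286 CPM in members (809.8 to 1840.1 across libraries) and 1399.98 CPM in macrophages. Cxcl2, a neutrophil chemokine, stood at 236 CPM in members and 1634 in macrophages. The interferon-induced chemokines Cxcl9 and Cxcl10, which draw Cxcr3-bearing T cells, stood at 291 and 628 CPM in members against 604 and 397 in macrophages. Plac8 and Ms4a4c, also abundant in monocytes, stood at 559 and 285 CPM in members against 193 and 168 in macrophages. Ifitm1, of the interferon-induced transmembrane family, stood at 1459.8 CPM in members and 138 in macrophages, but ranged from 441 to 3417 CPM across the member libraries. The family members are similar in sequence, so the split of reads between them is uncertain.

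Members entered through Cd209a alone in 255 cases (76.1%), through Flt3 alone in 62 (18.5%) and through both in 18 (5.37%). The Flt3-only cells carried less of the type 2 lectins: Clec10a stood at 74.6 CPM in them and 207 in the Cd209a-only cells, and Mgl2 at 65.6 and 196 CPM. They carried more Irf8 (170 against 92.5 CPM) and more Cd24a, a surface protein also found on type 1 dendritic cells and precursors (110 against 30.8 CPM). All 6 members with a UMI of Siglech, a plasmacytoid dendritic cell receptor, were Flt3-only cells, as were 5 members with a UMI of Ly6d. The monocyte genes Ly6c2, Fcgr1, Ms4a4c and Plac8 were lower in the Flt3-only than in the Cd209a-only cells. They stood at 110.3 and 215 CPM, 26.8 and 69 CPM, 119 and 331 CPM, and 444 and 577 CPM, in this order. Fn1, a matrix glycoprotein, was higher, at 1074 CPM in the Flt3-only and 592 in the Cd209a-only cells. In the split by matrix RNA of the next paragraph, Fn1 stood at 1077 CPM in matrix-rich members and 175 CPM in the others. Matrix-rich members were 19 of the 62 Flt3-only and 56 of the 255 Cd209a-only cells. Sirpa, a receptor of type 2 cells and monocytes, stood at 65.6 CPM in the Flt3-only and 59.2 CPM in the Cd209a-only cells.

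A second split concerned RNA of connective tissue. Of the members, 77 (23%) held 5 or more UMIs of the 6 matrix genes Sparc, Serpinh1, Pcolce, Col1a1, Col1a2 and Col3a1, genes of fibroblasts and of this tumour line. They held a median of 10382 UMIs, against 2606 in the other 258 members, and gave 54.8% of all member UMIs. Cd74 stood at 5633 CPM in them and 28398 CPM in the others, Cd209a at 173 and 953 CPM, and Ifitm1 at 558 and 2553 CPM. After thinning to 1000 UMIs, Sparc was present in 25.2% of members, 33.1% of T cells and 32.3% of macrophages. No doublet caller was run, and whether these cells are doublets was not tested. Their share was 22.6% of KO members (95% exact Clopper-Pearson interval 17 to 29.1) and 23% of control members (15.8 to 31.4), intervals that cover counting error only.

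The first comparison across samples asked whether loss of Mif in the tumour line went with more or fewer type 2 dendritic cells. Shares are of all cells with a Ptprc UMI, the pan-leukocyte gene, in tumours with at least 50 such cells. Because 195 of the 335 members (58.2%) held a Ptprc UMI themselves, only these entered the share. In 17 Mif KO tumours the share ranged from 0 to 3.77% with a median of 1.05%, and in 18 control tumours from 0 to 3.33% with a median of 0.968%. The ranges overlapped almost wholly. The means were 1.15% ± 0.865 (SD, n = 17) and 1.07% ± 0.872 (SD, n = 18), a difference of 0.0761 percentage points (two-sided permutation test within day, 100000 resamples, p = 0.772). Means by line were 1.28% for line 15, 0.858% for line 18, 1.18% for line 19 and 1.1% for line 24, so that both KO lines lay between the 2 control lines. A difference between the groups was not detectable, and the sign of the value depended on the gate.

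The share did differ by day. At day 6 it ranged from 0.690 to 3.77% with a median of 1.40% over 11 tumours, and at day 16 from 0 to 2.15% with a median of 0.458% over 12 tumours. Of the 12 day 16 tumours, 11 lay below the day 6 median and 9 below every day 6 tumour. The mean fell from 1.72% ± 1.01 (SD, n = 11) to 0.602% ± 0.621 (SD, n = 12), a difference of -1.12 percentage points (two-sided exact permutation test within lines, p = 0.00306). The mean was lower at day 16 in 4 of 4 lines and in 6 of 6 libraries. In the mixed libraries alone the difference was -1.19 points, with an exact permutation p of 0.125, the smallest that 16 arrangements allow. Within the groups the means at days 6, 10 and 16 were 1.92, 1.05 and 0.593% in KO tumours and 1.55, 1.05 and 0.611% in control tumours. As a share of all kept cells, members fell from 0.523 to 0.203% (exact permutation p = 1.25e-05).

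**Figure D2:**
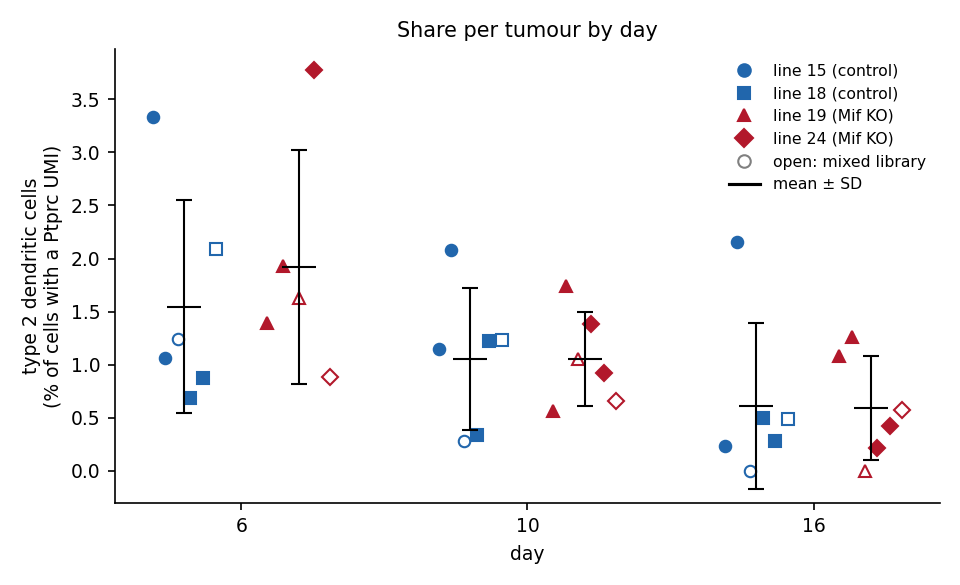
Members as a percentage of cells with a Ptprc UMI (vertical axis) in each tumour at days 6, 10 and 16 (horizontal axis), with marker shapes by line, open markers for the mixed libraries and bars for the mean ± SD of each group. Of 12 day 16 tumours 9 lie below every day 6 tumour, while control and KO tumours overlap on each day.

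Other antigen-presenting cells were counted in the same tumours, to show what the fall was relative to. Cells of these gates were counted with or without a Ptprc UMI and set against the number of Ptprc cells. Their values are therefore not on the scale of the type 2 share above. Ccr7 dendritic cells also fell, from 8.68% of that number at day 6 to 3.76% at day 16 (exact permutation p = 3.75e-05, adjusted 0.000225 over 6 comparisons of other gates). Type 1 dendritic cells stood at 0.683% and 0.454% (exact permutation p = 0.0513, adjusted 0.103). Type 2 cells made up 23.3% of the 3 dendritic cell gates at day 6 and 21.5% at day 16, a difference of -1.77 points (exact permutation p = 0.737). MHC class II macrophages stood at 18.7% and 22.3% (exact permutation p = 0.337). Type 2 cells fell as a share of themselves plus these macrophages, from 13.9 to 5.69% (exact permutation p = 0.00703). Since the gate rests on few UMIs, fewer such cells and less RNA of the gate genes per cell cannot be told apart.

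For gene expression, counts of all members of a tumour were summed and compared between tumours, with day in the model. At least 10 members were held by 4 control and 11 KO tumours, with no control tumour at day 16. In this comparison 0 of 1619 genes passed an adjusted p of 0.05 in edgeR's quasi-likelihood test (0%), 108 had an unadjusted p under 0.05, and DESeq2 called 0. Ifitm1 came closest, with a log2 difference of -2.57 (SE 0.49, adjusted p = 0.0634). Admitting tumours with at least 5 members gave 13 control and 14 KO tumours. Of 991 genes tested there, 9 passed (0.908%), of which 8 were lower in KO tumours (0.807%) and 1 was higher. DESeq2 called 27 on the same sums (2.72%), among them all 9. The gene results that follow are from the sums of at least 5 members.

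Ifitm1 ranged from 504 to 6019.8 CPM in control tumours, with a median of 3032, and from 62.3 to 2341 CPM in KO tumours, with a median of 462. All 14 KO tumours lay below the control median, and in 7 of 13 control tumours the value exceeded all KO values. Its log2 difference was -2.21 (SE 0.41, edgeR adjusted p = 0.0046). Il1r2 ranged from 181 to 3312 CPM in control tumours (median 905) and from 82.9 to 471 CPM in KO tumours (median 338). In 10 of 13 control tumours the value exceeded that of every KO tumour. Its log2 difference was -1.72 (SE 0.32, edgeR adjusted p = 0.0046).

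S100a11, a calcium-binding protein, ranged from 2116 to 6131 CPM in control tumours (median 4543) and from 1841 to 3661 CPM in KO tumours (median 2883), with 11 of 13 control tumours above every KO tumour. Its log2 difference was -0.62 (SE 0.12, edgeR adjusted p = 0.0061). Tgfbi, a secreted matrix protein induced by the cytokine TGF-beta, ranged from 188 to 1059 CPM in control tumours (median 503) and from 33.2 to 446 CPM in KO tumours (median 211). Its log2 difference was -1.38 (SE 0.31, edgeR adjusted p = 0.0224). In 8 of 13 control tumours Tgfbi exceeded all KO values.

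The other genes that passed were Ccnd3, a D-type cyclin, at 297 ± 155 CPM in control and 109 ± 53.8 in KO tumours (SD, n = 13 and 14), and Fxyd5, a regulator of the sodium pump, at 1196 ± 289.9 and 749 ± 226 CPM. Ehd4, an endosomal trafficking protein, stood at 197 ± 78.8 and 100.1 ± 29.2 CPM. Rps29, a ribosomal protein gene, was the one gene that rose, from 1742 ± 334 to 2385 ± 508 CPM. Ribosomal protein genes have many processed copies in the genome, so its reads are uncertain. All 14 KO tumours had Rps29 at or above the control median, and 4 lay above every control tumour.

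The lines differed in these genes. After thinning, an Il1r2 UMI was present in 62.9% of members of line 15, 35% of line 18, 27.7% of line 19, 26% of line 24 and 28.6% of the WT members. For Ifitm1 the shares were 67.7, 53.3, 35.1, 26 and 28.6% in the same order. Without line 15 the number of genes that passed was 0, without line 18 it was 52, and without line 19 it was 21. Without line 15, which left 6 control tumours, the log2 differences were -2.24 for Ifitm1, -1.44 for Il1r2 and -0.64 for S100a11 (edgeR adjusted p = 0.261, 0.41 and 0.343), and the 6 tumours of line 18 averaged 2770.3 ± 2393 CPM of Ifitm1 (SD). Control tumours in the mixed libraries averaged 1914 CPM of Ifitm1 against 834 in KO tumours there, and 684 against 281 CPM of Il1r2. In the libraries of single lines the same means were 3459.6 against 525 CPM and 1237 against 321 CPM. The control and KO means of Ccnd3, Fxyd5, Tgfbi and Ehd4 also lay closer together in the mixed libraries. Ccnd3 averaged 185 CPM in control and 143 CPM in KO tumours there, against 346 and 90.6 CPM in the libraries of single lines. Fxyd5 averaged 1007 and 782 CPM in the mixed libraries, against 1280 and 731 CPM. Tgfbi averaged 418 and 252 CPM in the mixed libraries, against 573 and 184 CPM, and Ehd4 178 and 110 CPM against 206 and 94.6 CPM. S100a11 stood at 4287 and 2884 CPM against 4387 and 2796 CPM, and Rps29 at 1526 and 2035 CPM against 1838 and 2579 CPM. The mixed libraries alone gave 0 calls, with log2 differences of -1.39 for Ifitm1 (adjusted p = 0.652), -1.05 for Il1r2 (adjusted p = 0.622) and -0.58 for S100a11 (adjusted p = 0.491) in edgeR's test. With library as a term the count was also 0.

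**Figure D3:**
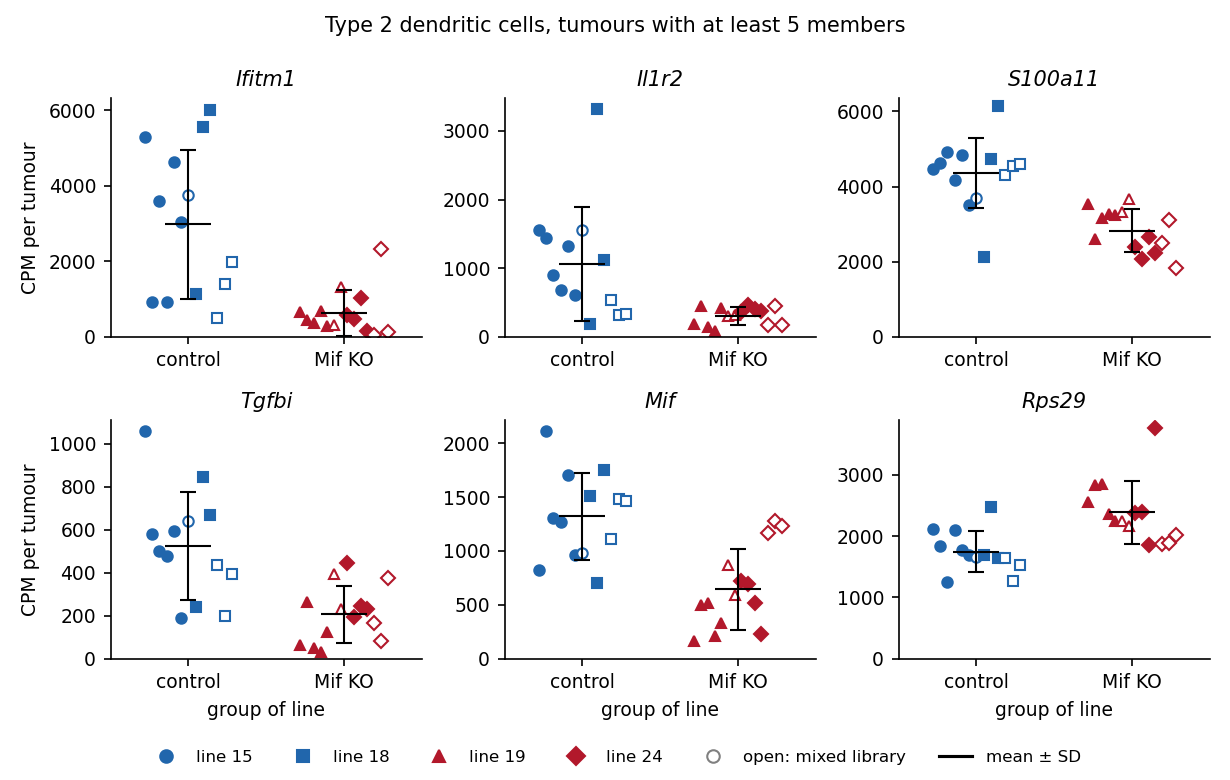
CPM per tumour (vertical axis, linear) of 6 genes that passed, in control and Mif KO tumours with at least 5 members; marker shapes give the line, open markers the mixed libraries, and bars the mean ± SD. For Il1r2, 10 of 13 control tumours lie above every KO tumour, and the highest point, 3312 CPM, is a line 18 tumour.

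Leaving out the members with 5 or more matrix UMIs changed this list. In 11 control and 13 KO tumours, 34 of 463 genes passed (7.34%), 26 lower and 8 higher in KO tumours, including 6 of the 8 earlier genes that could be tested. Il1r2 averaged 1789 ± 1068 CPM in control and 467 ± 223 CPM in KO tumours (SD, n = 11 and 13; log2 difference -1.90, adjusted p = 0.000277 in edgeR's test). Tgfbi averaged 791 ± 417 and 175 ± 112 CPM (log2 difference -2.15, adjusted p = 0.000277 in edgeR's test). For both, 13 of 13 KO tumours lay below the control median. Cfp, the properdin gene that was high in members, averaged 927 ± 295 and 472 ± 238 CPM, and Cd74 32300.4 ± 6350.2 and 24746 ± 3548 CPM. Among genes that rose, Plac8 averaged 570.03 ± 512 CPM in control and 1307 ± 752 CPM in KO tumours, and B2m, the light chain of MHC class I, 1897 ± 644 and 2611 ± 611 CPM. Of the 8 higher genes 5 were ribosomal or mitochondrial.

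Mif itself was among the 8 lower genes over all members. It ranged from 705 to 2115 CPM in control tumours (median 1307) and from 166 to 1277 CPM in KO tumours (median 553), a log2 difference of -1.07 (SE 0.25, edgeR adjusted p = 0.0259). In the mixed libraries it averaged 1261 ± 252 CPM in 4 control and 1027 ± 292 CPM in 5 KO tumours (SD), against 1350 ± 467 and 433 ± 207 CPM in 9 and 9 tumours of the libraries of single lines. The log2 difference was -0.37 in the mixed libraries alone and -0.38 with library as a term (edgeR adjusted p = 0.747 and 0.848). Cells without a Ptprc UMI in KO tumours also held more Mif in the mixed libraries, as given above, and the cause was not tested. Split by matrix RNA, the 2 sides gave different values. In members with at most 4 matrix UMIs, Mif averaged 666 ± 237 CPM in 15 control tumours and 706 ± 322 CPM in 14 KO tumours, and in the fit without the other members its log2 difference was -0.04 (adjusted p = 0.949 in edgeR's test). In members with 5 or more matrix UMIs it averaged 1820.3 ± 15.1 CPM in 2 control tumours and 704 ± 498 CPM in 8 KO tumours. Macrophages showed the same split, at 1126 ± 228 and 1116 ± 161 CPM with few matrix UMIs, and at 2024 ± 572 and 799 ± 548 CPM with 5 or more. Whether tumour-cell RNA gave the Mif difference in members was not tested, and only 2 control tumours held 3 or more matrix-rich members.

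**Figure D4:**
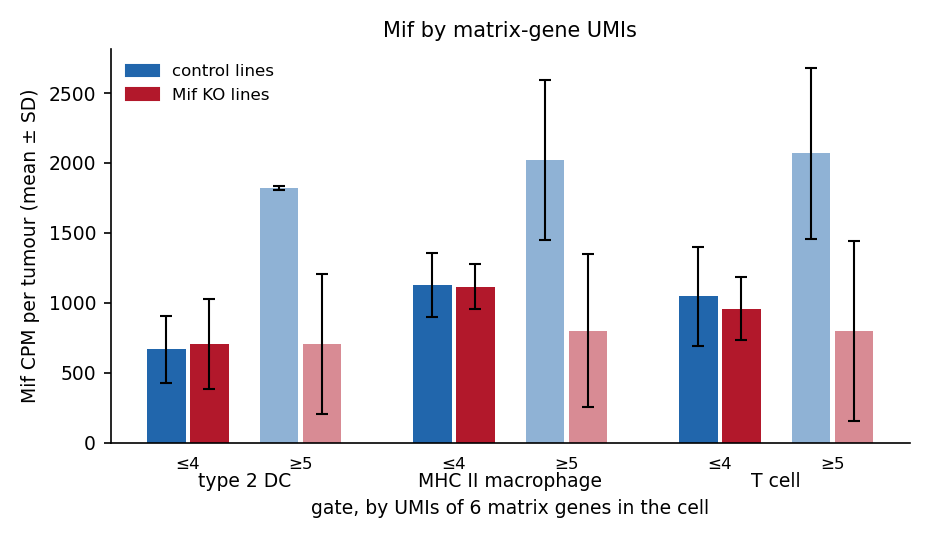
Mif in CPM (vertical axis) per tumour in type 2 dendritic cells, MHC class II macrophages and T cells, split by at most 4 or at least 5 UMIs of 6 matrix genes; bars are means over tumours of control (blue) and Mif KO lines (red), with SD. With at most 4 matrix UMIs the control and KO bars differ by less than 1 SD in each gate, and with 5 or more the control means lie at 1820.3 CPM or above.

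Of the gene lists, only that of Mif and its receptors held a gene that passed. Of the 32 interferon response genes 13 were tested at 5 members, and 0 passed. Of these 13 genes 11 had a positive difference, against 514 of all 991 genes tested, with a median of 0.39 against 0.01 over all genes tested. This lean was absent with at least 10 members. There 18 genes of the list were tested, 0 passed, 9 were positive and 9 negative, with a median of 0.03. Among the 13 genes Cxcl9 had the largest value, averaging 139 ± 237 CPM in control and 445 ± 414 CPM in KO tumours (log2 difference 1.82, SE 0.55, edgeR adjusted p = 0.0838). Of 14 class I genes 10 were tested and 0 passed, with a median of 0.25. Of 12 class II genes 8 were tested and 0 passed, with a median of -0.20. Of 18 glycolysis and hypoxia genes 10 were tested and 0 passed, 8 of them with a negative value. Of the 7 genes of Mif and its receptors 3 were tested, and Mif alone passed.

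MHC class II macrophages of the same tumours, not the other dendritic cells, were the cells compared with members. Their mean Ifitm1 was 213 CPM in control and 64.5 CPM in KO tumours, their mean Il1r2 156 and 114 CPM, their mean Tgfbi 1024 and 615 CPM, and their mean S100a11 2868 and 2038 CPM. Their mean Fxyd5 was 985 and 585 CPM, their mean Ccnd3 60.9 and 39.6 CPM, their mean Ehd4 181 and 149 CPM and their mean Rps29 2087 and 2694 CPM. In T cells of 15 control and 17 KO tumours, mean Tgfbi was 143 and 62.6 CPM, Fxyd5 825 and 649 CPM, Ccnd3 109 and 75 CPM, and Rps29 1997 and 2295 CPM. For each of the 9 genes that passed in members, the difference of the means had the same sign in macrophages and in T cells, which was not tested within those cells. A model with a term for the difference of the KO effect between dendritic cells and macrophages called 0 of 3675 genes (0%) in edgeR's test, with 193 at an unadjusted p under 0.05. DESeq2 called 2 on these sums (0.0544%), Wfdc17 with a log2 difference of -1.49 between the 2 effects (adjusted p = 0.018) and Plp2 with 0.92 (adjusted p = 0.0254). Neither passed in edgeR's test (adjusted p = 0.0776 and 0.143). With at least 10 members 0 of 3202 genes passed (0%), with 114 at an unadjusted p under 0.05 and 0 called by DESeq2. Simulated 4-fold changes in that fit were recovered for 63% of the changed genes, and 2-fold changes for 23%. A further fit with at least 5 members took matrix-rich cells out of the dendritic cells but not out of the macrophages. In it 5 of 2005 genes passed (0.249%), among them Tgfbi with a further -1.39 in dendritic cells (adjusted p = 0.045 in edgeR's test). None of the 9 genes is therefore shown to differ in its KO effect between type 2 dendritic cells and macrophages over all members.

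The last comparison followed expression from day 6 to day 16. Interferon-induced genes are switched on by factors that bind short GAAA-rich elements near the start sites of their targets. The promoters of 3 such genes are shown as examples of list genes whose values by day follow, each 250 bases before to 50 bases after the start, from RefSeq on build GRCm38.p6. Capitals mark matches to GAAA, any 2 bases and GAAA again, so that a match on the other strand reads TTTC, any 2 bases and TTTC. The Gbp2 promoter lies at chr3:142620413-142620712 on the plus strand, that of Isg15 at chr4:156200769-156201068 and that of Cxcl10 at chr5:92348840-92349139, both on the minus strand.
Gbp2: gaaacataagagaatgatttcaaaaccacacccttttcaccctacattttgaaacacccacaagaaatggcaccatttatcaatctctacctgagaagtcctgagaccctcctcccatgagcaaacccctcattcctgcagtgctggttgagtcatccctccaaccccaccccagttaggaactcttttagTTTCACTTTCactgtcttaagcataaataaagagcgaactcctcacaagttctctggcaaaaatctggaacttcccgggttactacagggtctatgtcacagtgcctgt
Isg15: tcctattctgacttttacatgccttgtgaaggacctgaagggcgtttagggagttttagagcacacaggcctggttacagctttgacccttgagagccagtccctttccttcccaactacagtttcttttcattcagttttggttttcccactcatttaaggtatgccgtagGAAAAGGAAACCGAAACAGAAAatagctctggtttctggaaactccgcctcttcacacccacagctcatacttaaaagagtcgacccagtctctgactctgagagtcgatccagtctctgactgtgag
Cxcl10: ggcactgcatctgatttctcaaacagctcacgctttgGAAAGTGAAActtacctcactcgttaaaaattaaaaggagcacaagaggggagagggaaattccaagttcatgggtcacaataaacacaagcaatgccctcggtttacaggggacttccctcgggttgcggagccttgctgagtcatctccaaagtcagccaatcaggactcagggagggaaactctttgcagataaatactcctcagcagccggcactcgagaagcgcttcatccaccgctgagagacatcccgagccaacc

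The motif was present in 15 of the 24 interferon list genes that have a promoter entry (62.5%) and in 1079 of all 27025 promoters in the table (3.99%). Isg15 holds 3 overlapping matches, and Gbp2 and Cxcl10 hold 1 each. A match is a description of the letters, not a measured site. No match was found for Ifi47, Irf7 or Cxcl9 in this window, and Zbp1 has no entry.

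With at least 10 members a tumour, 0 of 1878 genes passed between day 16 and day 6 (0%) in edgeR's test, with 177 at an unadjusted p under 0.05 and 0 called by DESeq2. This fit held 7 tumours of day 6, 5 of day 10 and 3 of day 16, and all 3 were KO tumours. Its tumours are a part of those with at least 5 members, so the 2 fits are not independent. With at least 5 members, in 10 tumours of day 6, 10 of day 10 and 7 of day 16, 1 of 1197 genes passed, in the direction lower at day 16 (0.0835%). DESeq2 called 3 (0.251%). Values below are from these sums. Simulated 4-fold changes in the comparison with at least 10 members, over 1878 genes, were recovered for 54.1% of the changed genes, and 2-fold changes for 15.7%.

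Gbp2, an interferon-induced GTPase of cell-autonomous defence and the first promoter above, was the gene that passed. It ranged from 50.5 to 731 CPM at day 6 (median 294), from 0 to 242 CPM at day 10 (median 37.3) and from 0 to 134 CPM at day 16 (median 38.8). The 7 day 16 sums held 29690 to 88329 UMIs of all genes each, so their Gbp2 values rest on few UMIs. Of 10 day 6 tumours 8 lay above every day 16 tumour, and 7 of 7 day 16 tumours lay below the day 6 median. The log2 difference was -2.57 (SE 0.49, edgeR adjusted p = 0.015). The share of thinned members with a Gbp2 UMI was 25.2% at day 6, 8.55% at day 10 and 9.3% at day 16. Without the matrix-rich members Gbp2 no longer passed (log2 difference -1.90, adjusted p = 0.163 in edgeR's test), and no gene passed when line 15, 19 or 24 was left out.

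The other interferon genes tested had negative values without passing in edgeR's test. Ifi47, another interferon-induced GTPase, averaged 188 ± 94.6 CPM at day 6, 104 ± 143 at day 10 and 35.8 ± 35.9 at day 16 (SD, n = 10, 10 and 7), with a log2 difference of -2.51 (edgeR adjusted p = 0.115). Zbp1, a sensor of nucleic acids, averaged 209 ± 116, 110.4 ± 92.3 and 62.6 ± 42 CPM (log2 difference -1.73, edgeR adjusted p = 0.12). DESeq2 called both, with adjusted p of 0.0143 and 0.028. For both, 7 of 7 day 16 tumours lay below the day 6 median.

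Cxcl9 averaged 582 ± 441, 116 ± 148 and 151 ± 224 CPM (log2 difference -2.48, edgeR adjusted p = 0.12). It was at 0 in 2 of 10 day 6 tumours, and its day 6 values reached 1160.1 CPM. Isg15, a ubiquitin-like protein, averaged 991 ± 648, 575 ± 224 and 562 ± 480.5 CPM, and 1 day 6 tumour lay above every day 16 tumour (log2 difference -1.01, edgeR adjusted p = 0.307). Cxcl10 averaged 843 ± 519, 627 ± 621 and 426 ± 528 CPM (log2 difference -1.59, edgeR adjusted p = 0.318). Irf7, the factor that amplifies type I interferon, averaged 358 ± 256, 129 ± 88.1 and 172 ± 142 CPM (edgeR adjusted p = 0.231).

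**Figure D5:**
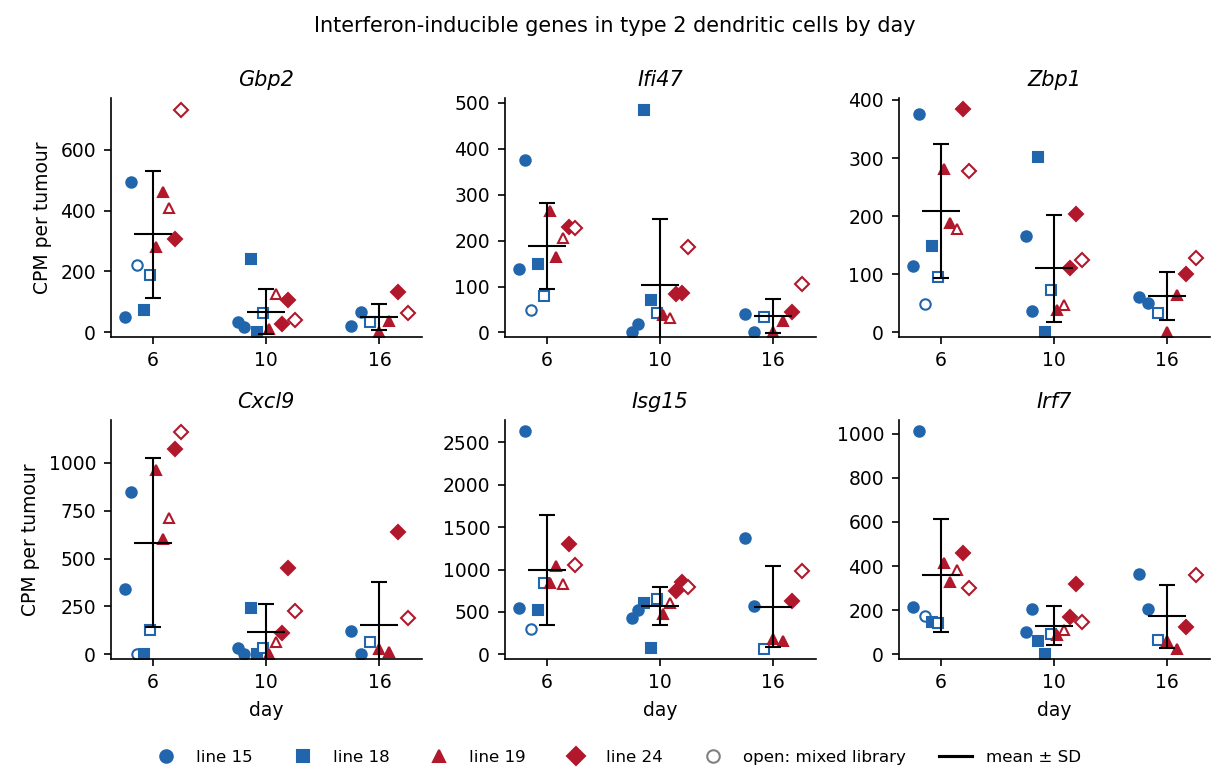
CPM per tumour (vertical axis) of interferon response genes at days 6, 10 and 16, marker shapes by line and colours by group, with the mean ± SD of each day. For Gbp2, 7 of 7 day 16 tumours lie below the day 6 median, while Isg15 values of the days overlap.

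As a list, 16 of the 32 interferon response genes were tested with at least 5 members. Of these 1 passed, against 1 of all 1197 genes tested (0.0835%), and 16 had a negative value, against 562 of the 1197. Their median was -1.25 against 0.02 over all genes tested. With at least 10 members 21 were tested, 0 passed and 21 were negative, against 928 negative of all 1878 genes tested. The median was -1.68 against 0.005. Class I antigen presentation genes, which interferon also induces, had 10 of 14 tested, 0 passed and 10 negative, with a median of -0.56. Psme1, a proteasome activator subunit, averaged 658 ± 277 CPM at day 6 and 432 ± 67.5 CPM at day 16, and the peptide transporter subunit Tap1 244 ± 114 and 126 ± 75.7 CPM. Class II genes had 8 of 12 tested, 0 passed and a median of -0.19. The list of immediate early and heat shock genes, which rise during dissociation, held 17 genes. With at least 10 members 17 were tested, 0 passed and 15 were positive, against 950 of all 1878, with a median of 0.28. With at least 5 members 16 were tested, 0 passed and 12 were positive, against 635 of all 1197, with a median of 0.06. Of 20 monocyte and inflammatory dendritic cell genes 13 were tested, 0 passed and 8 were negative, with a median of -0.41. Plac8 of that list had a log2 difference of -1.18 (edgeR adjusted p = 0.231). Whether the kinds of cell admitted by the gate differed between days was not tested.

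In the other direction no gene passed. Cxcl2 averaged 135 ± 155 CPM at day 6, 239 ± 251 at day 10 and 496 ± 409 at day 16 (log2 difference 2.12, edgeR adjusted p = 0.263). Mgl2 averaged 118 ± 126, 177 ± 167 and 290 ± 231 CPM (log2 difference 1.60, edgeR adjusted p = 0.263), and the inhibitory Fc receptor Fcgr2b 69.2 ± 49.9, 119 ± 76.9 and 212 ± 132 CPM (log2 difference 1.5, edgeR adjusted p = 0.231). The lectin and phagocytic receptor list, to which such genes belong, had 6 of 26 tested and 0 passed, 5 of them positive. In the fit with at least 10 members, Col1a2, one of the matrix genes of the split above, had a log2 difference of 3.48. Aebp1 stood at 1.99 and Serpinf1 at 3.14 there, and none of these passed (edgeR adjusted p = 0.16 for each).

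Macrophages of the same tumours averaged 197.5 CPM of Gbp2 at day 6 and 103 CPM at day 16, 146 and 66.2 CPM of Zbp1, and 886 and 537 CPM of Isg15. Their Cxcl9 went from 342 to 473 CPM. Whether the day difference itself differs between the 2 gates was not tested. The KO effect was also compared between days: 0 of 1325 genes passed (0%) in edgeR's test with at least 5 members, 76 had an unadjusted p under 0.05, and DESeq2 called 0. Simulated 4-fold changes in this comparison were recovered for 47.7% of the changed genes, and 2-fold changes for 11.1%.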

How the data were processed

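Cells were profiled with a 10x 5′ kit and TotalSeq-C hashtags, per the labels' protocols. The authors deposited whole-number UMI counts per gene and barcode, which per the file headers came from Cell Ranger 6.0.0, on build mm10 per the submitters' processing notes. The gene annotation and settings used were not given in the sources used here. The 6 libraries held 32285 gene rows. Barcodes were kept with at least 300 genes, at most 15% mitochondrial UMIs, and a top hashtag of at least 20 counts and 3 times the second. This removes doublets between hashtags, and no other doublet caller was run. Line and day came from the deposited hashtag sheet. Of 47 hashtagged samples, 2 had no kept cells. The WT tumours entered no comparison of groups.

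Members' counts were summed per tumour and tested with edgeR 4.0.16 (quasi-likelihood, TMM, filterByExpr) in R 4.3.3, with Benjamini-Hochberg adjustment at 0.05, in tumours with at least 10 members, and at least 5 as an alternative. DESeq2 1.42.0 was the alternative tool. The comparison of the KO effect between days used at least 5 members, because 10 left no control tumour at day 16. CPM per tumour use TMM-scaled library sizes. Shares were compared by permutation over tumours. Shares of cells with a UMI used cells thinned to 1000 UMIs. The model fits were tested on simulated data. The genes named are Mif, members of the fixed gene and marker lists and, for each comparison, up to 10 genes each way past the threshold at a mean log2 CPM of at least 5 (for interactions the 5 lowest p). Cfp and the genes named in the split by matrix RNA and in co-occurrence were chosen after their values were seen. The members and lists were chosen with earlier results of these data known. The matrix-gene split was added after seeing the data. The labels do not say that tumours came from separate animals, so p-values measure the spread between these samples, which may be technical.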

Additional observations from a re-analysis of the deposited data

Results flagged for a closer look

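Among control tumours at day 16, 1 of 6 stood apart with a share of 2.15% of Ptprc cells, against 0.499% in the nearest. It was a tumour of line 15. Gbp2 at day 10 reached 242 CPM in 1 of 10 tumours, against 127 CPM in the nearest. For such a sample 9 groups were examined and 2 were picked out, where chance gives about 1 in 20 groups. The 3 WT tumours, which entered no comparison, held 14 members among 9029 cells, with shares of 0.899% at day 6, 0.379% at day 10 and 0.683% at day 16.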

How the results depend on the processing

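No paired analysis was possible by replicate number, because replicate numbers name the lines, and no line number occurs in both groups. Control and KO tumours of one day did share a library in the mixed libraries, and with library as a term 0 genes were called between the groups with at least 10 or at least 5 members (101 and 97 at an unadjusted p under 0.05 in edgeR's test). The KO difference in share, 0.0761 percentage points, changed sign in 9 of 19 alternatives, none past the threshold (p from 0.0775 to 1). It was -0.0250 with cells thinned to 2000 UMIs, -0.0360 with at least 20 class II UMIs, -0.00707 without UMIs of other cell types, -0.0905 in the mixed libraries, -0.0881 with at least 200 Ptprc cells and -0.0121 without matrix-rich cells. It was -4.64 as a share of the 3 dendritic cell gates and -10.9 as a share of the type 1 and type 2 gates. Leaving out a line gave -0.136 to 0.288. The day difference kept its sign in 18 of 18 alternatives and its side of the threshold in 15. The exceptions were -1.19 in the mixed libraries (p = 0.125, the smallest that the exact permutation test over 16 arrangements can give, so this design could not pass), -1.77 of the 3 dendritic cell gates (p = 0.737, permutation) and -15.9 of the type 1 and type 2 gates (p = 0.0582, permutation). Leaving out a line gave -1.24 to -0.914.

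Genes called between KO and control tumours numbered 0 with at least 10 members. They numbered 9 with at least 5, 16 with at least 2, 15 with no count filter, 1 with at least 20 class II UMIs, 3 without the deepest cells, 2 in the mixed libraries, and 3 with 1 sum per line. With at least 5 members they numbered 34 without matrix-rich cells and 27 with DESeq2. Leaving out a line gave 0 to 3 with at least 10 members and 0 to 52 with at least 5 (0 without line 15, 52 without line 18, 21 without line 19 and 10 without line 24). In the mixed libraries with at least 10 members, where 1 control tumour remained and is assumed to vary like the others, Tgfbi was 0.51, Ccnd3 0.19 and Fxyd5 0.49, and with library as a term Fxyd5 was 0.40, none past the threshold. Genes called by day numbered 0 with at least 10 members, 1 with at least 5 or 2, 30 with no count filter, and 3 with DESeq2 at 5 members. They numbered 2 without UMIs of other types, 3 in the mixed libraries and 5 without matrix-rich cells, fits with 1 day 16 tumour, assumed to vary like the others, and 1 or 2 residual degrees of freedom. With at least 5 members the last 2 gave 0 each. Leaving out a line gave 0 to 10 with at least 10 members, the highest without line 24 (1 day 16 tumour), and 0 to 2 with at least 5, the highest without line 18. The KO effect by day gave 11 calls with no count filter, and 0 to 2 without a line. The KO effect by gate gave 2 calls with no filter. With at least 5 members it gave 2 with DESeq2, and 5 with matrix-rich cells taken out of the members but not of the macrophages. The cause of these differences was not tested. Requiring 20 members could not be fitted for any gene result, nor could the KO and gate comparisons without UMIs of other types, or without matrix-rich cells at 10 members.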

Other observations

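Some transcripts were found together in members. Among 330 thinned members, a UMI of Isg15 went with other interferon-induced genes: Gbp2 was present in 27.0% of members with an Isg15 UMI and 8.17% of those without, Cxcl10 in 35.2 and 14.4%, and Irf7 in 32.8 and 12.5%. Monocyte-associated genes went the same way, with Ms4a4c in 45.9 and 23.6% and Plac8 in 57.4 and 39.4%. A UMI of Il1r2 went with Ifitm1, present in 62.9% of members with and 29.9% of those without Il1r2, and with Klrd1 (30.2 and 13.1%), while Isg15 was present in 36.2 and 37.4%. Of the interferon-induced genes, Irf7 was present in 25.9 and 16.8%, Ly6a in 61.2 and 45.3%, Cxcl9 in 11.2 and 19.2%, Gbp2 in 11.2 and 17.3% and Cxcl10 in 20.7 and 22.9%. These shares pool cells of all tumours, which share libraries and lines, and carry no test.

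Type 1 dendritic cells were counted in the same tumours with or without a Ptprc UMI and set against the number of Ptprc cells. They stood at 0.671% ± 0.372 of that number in KO tumours and 0.326% ± 0.333 in control tumours (SD, n = 17 and 18, permutation test within day, p = 0.00416, adjusted 0.0125 over 6 comparisons of 3 other gates). Ccr7 dendritic cells stood at 5.66% ± 3.17 and 4.37% ± 3.34 (permutation p = 0.0819, adjusted 0.123).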
